A study of Mus musculus with 4 samples.

Results

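Glycolysis turns glucose into pyruvate in the cytosol, and lactate dehydrogenase then turns pyruvate into lactate, which leaves the cell through monocarboxylate carriers. The hypoxia-inducible factors (HIF) are transcription factors made of an oxygen-sensitive alpha subunit and the partner ARNT. In the presence of oxygen, prolyl hydroxylases mark the alpha subunit and VHL directs its degradation. In low oxygen the complex binds promoters and enhancers and raises the transcription of many glycolysis genes. In the developing kidney, nephron progenitors are known for a high rate of glycolysis that declines as they differentiate. The genes described here are 47 symbols of the glycolytic pathway and the HIF response, listed by name with earlier results of these data known. They corresponded to 48 of the 52636 gene identifiers in the count files, because *Aldoa* had a second, short identifier. 47 identifiers passed the filter on low counts and were among the 19041 genes tested. The second *Aldoa* identifier, with 15 and 10 reads in the controls and 2 and 4 in *Eya1*cKO, was not tested.

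The values are RNA-seq read counts of tdTomato+ cells sorted by FACS from mouse kidneys 48 h after the first dose of tamoxifen, at E12.5 to E12.75. Control cells carried *Eya1* CreER, a tamoxifen-inducible Cre at the *Eya1* locus, and the R26-tdTomato reporter, and *Eya1*cKO cells carried in addition floxed *Eya1* alleles (*Eya1* fl/fl). All embryos therefore had the CreER allele and received tamoxifen, only cells in which the *Eya1* locus had driven CreER were labelled, and no group without CreER was measured. Each genotype had 2 libraries (n = 2) from separate portions of 5000 cells sorted at the same time from combined cell suspensions, so the *P* values measure the spread between these libraries, which may be technical. *Eya1* itself, a transcription coactivator and phosphatase of progenitor cells, had 6612 and 6420 reads in the controls and 377 and 219 in *Eya1*cKO. Reads counted on genes ranged from 17457452 to 37999342 per library, lower in both *Eya1*cKO libraries than in both controls, and 3 reads, taken as the limit of detection, stood for 0.0801 to 0.171 CPM (read counts relative to the library total, scaled by edgeR's TMM factors). Intervals and limits of this kind cover counting error only.

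Marker genes of several cell types also differed between the genotypes. The summed level of 8 nephron progenitor markers was 721 and 704 CPM in the controls, against 85.8 and 67.8 CPM in *Eya1*cKO, and 7 of the 8 were lower in edgeR's test. For comparison with this and the counts that follow, 4.41% of all genes tested were lower and 5.15% higher. The 8 endothelial markers, all 8 higher, summed to 622 and 636 CPM in the controls against 1117 and 1137 CPM. The 8 podocyte markers, 7 of them higher, summed to 897 and 915 CPM against 2865 and 2906 CPM, and the 8 stromal markers, 5 higher, to 2972 and 2956 CPM against 5888 and 6108 CPM. Most of the stromal sum was *Col1a1* (1073 and 1062 CPM against 2238 and 2495 CPM) and *Col3a1* (965 and 962 CPM against 2431 and 2412 CPM). Of the 8 stromal markers, 6 lay higher in both *Eya1*cKO libraries, *Meis1* overlapped and *Ntn1* lay lower in both. Adrenal cortex markers, 8 of 8 higher, summed to 82.9 and 72.4 CPM against 943 and 883 CPM. Chromaffin and sympathetic markers, also 8 of 8 higher, summed to 5.33 and 6.86 CPM against 366 and 418 CPM. Of 8 ureteric bud markers 2 were lower, with sums of 300.2 and 296 CPM against 198 and 203 CPM, and of 8 neuron markers 4 were higher and 1 lower, with sums of 52 and 54.9 CPM against 110.2 and 117 CPM. Red blood cell markers were near 0 in every library, and *Hba-a1*, *Hba-a2*, *Hbb-bs* and *Hbb-bh1* were at 0 in all 4. Skeletal muscle and macrophage markers had no gene past the test in edgeR or DESeq2, with 0 of the 4 muscle markers tested and 1 of 8 macrophage markers at an unadjusted *P* under 0.05, and 1 of 8 dissociation stress genes was higher. In these sorted populations fewer cells of a type and less RNA per cell cannot be told apart, and the part of these marker changes in the results that follow was not tested.

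HIF complexes bind the core letters ACGTG or GCGTG within hypoxia response elements. RefSeq promoters (build GRCm38.p6, 250 bases before the start site and 50 after) were found for 44 of the 47 symbols, with 63 promoters in all. *Epas1*, *Bnip3l* and *Slc2a3* had no entry. ACGTG, searched on both strands, was in 49.2% of these 63 promoters, in 19.6% of all 32851 promoters of the table and in 24% of the promoters of tested genes. GCGTG was in 57.1%, 32.4% and 47.5%. The palindrome CACGTG, which overlaps ACGTG and also binds basic helix-loop-helix factors other than HIF, was in 14.3% of the promoters of the listed genes, 7.15% of all promoters and 9.3% of those of tested genes. Median GC content was 61% in the promoters of the listed genes, 52.7% in all and 60% in those of tested genes. Of the 9 genes found lower below, 5 had ACGTG in a promoter, and of the 34 that did not pass the test and had a promoter, 21 had it. GCGTG was in 7 of the 9 and 23 of the 34, and either core in 9 of the 9 and 30 of the 34. Counted by gene in the same way, 27.7% of the tested genes with a promoter had ACGTG, 53% had GCGTG and 64.4% had either core. A match of letters is a description and not a site of binding. The 250 bases before the start site are printed for 3 enzyme genes that were lower and have ACGTG there, and for *Cited2*, which was higher and has it too. Capitals mark ACGTG or GCGTG on either strand, so CACGT is ACGTG on the opposite strand.
Hk2, chr6:82774455-82774704, minus strand: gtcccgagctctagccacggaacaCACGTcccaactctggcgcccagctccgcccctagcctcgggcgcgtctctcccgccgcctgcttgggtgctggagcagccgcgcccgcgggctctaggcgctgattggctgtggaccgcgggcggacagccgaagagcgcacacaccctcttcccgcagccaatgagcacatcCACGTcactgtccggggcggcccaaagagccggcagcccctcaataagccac
Pkm, chr9:59656977-59657226, plus strand: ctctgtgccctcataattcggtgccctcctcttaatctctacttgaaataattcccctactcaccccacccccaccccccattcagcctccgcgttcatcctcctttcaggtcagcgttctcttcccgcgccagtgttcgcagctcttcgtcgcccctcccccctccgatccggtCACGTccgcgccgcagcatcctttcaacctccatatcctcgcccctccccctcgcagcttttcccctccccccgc
Ldha, chr7:46845554-46845803, plus strand: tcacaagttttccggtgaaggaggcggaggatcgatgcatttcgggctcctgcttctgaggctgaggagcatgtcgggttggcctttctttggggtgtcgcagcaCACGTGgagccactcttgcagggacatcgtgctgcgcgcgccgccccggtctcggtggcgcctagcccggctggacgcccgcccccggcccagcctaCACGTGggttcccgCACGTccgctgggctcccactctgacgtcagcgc
Cited2, chr10:17722978-17723227, plus strand: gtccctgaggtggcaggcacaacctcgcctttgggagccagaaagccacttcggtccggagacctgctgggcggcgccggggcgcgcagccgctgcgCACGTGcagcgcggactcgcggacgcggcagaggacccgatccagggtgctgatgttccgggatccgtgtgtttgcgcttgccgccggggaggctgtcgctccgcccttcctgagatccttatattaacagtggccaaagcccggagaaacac
The *Hk2* promoter had 2 separate ACGTG matches, which began at -226 and -52 from the start site. *Ldha* had CACGTG beginning at -145 and at -48 and a further ACGTG at -34. *Pkm* had 1 at -75 and a further 1 at 9, past the printed bases, and the 1 CACGTG of *Cited2* began at -153. *Pkm* and *Ldha* each have another promoter that is not printed. That of *Pkm*, starting at chr9:59656326, had neither core, and that of *Ldha*, starting at chr7:46846832, had GCGTG but no ACGTG.

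Of the 47 genes tested, 9 were lower and 2 higher in *Eya1*cKO at an adjusted *P* under 0.05 in edgeR's quasi-likelihood test. These are 19.1% and 4.26% of the 47, where 4.41% of all genes tested were called lower and 5.15% higher. Well-counted genes pass the test more often. Among the 34 listed genes with a mean of at least 20 CPM over the 4 libraries, 8 (23.5%) were lower and 2 (5.88%) higher, beside 9.25% and 8.28% of the 8439 genes at that level. The genes that fell were the glucose carrier *Slc2a1*, the lactate carrier *Slc16a1*, and the enzymes *Hk2*, *Pfkl*, *Eno1*, *Eno3*, *Pkm*, *Ldha* and *Ldhb*. The 2 that rose were the HIF alpha subunit *Epas1* and the HIF feedback gene *Cited2*. Both *Eya1*cKO libraries lay below both controls for 19 of the 48 identifiers and above them for 8, where 30.0% and 25.3% of all genes tested did so. The median log2 fold change (*Eya1*cKO over control) of the 47 genes was -0.06 and that of all genes tested was 0.016. Leaving out control 1 or control 2, which bases the spread on the *Eya1*cKO pair alone, gave 0 calls among the 47, with 8 lower and 2 higher at an unadjusted *P* under 0.05 each time. Leaving out *Eya1*cKO 1 gave 13 lower and 7 higher, and leaving out *Eya1*cKO 2 gave 16 lower and 8 higher.

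**Figure D1:**
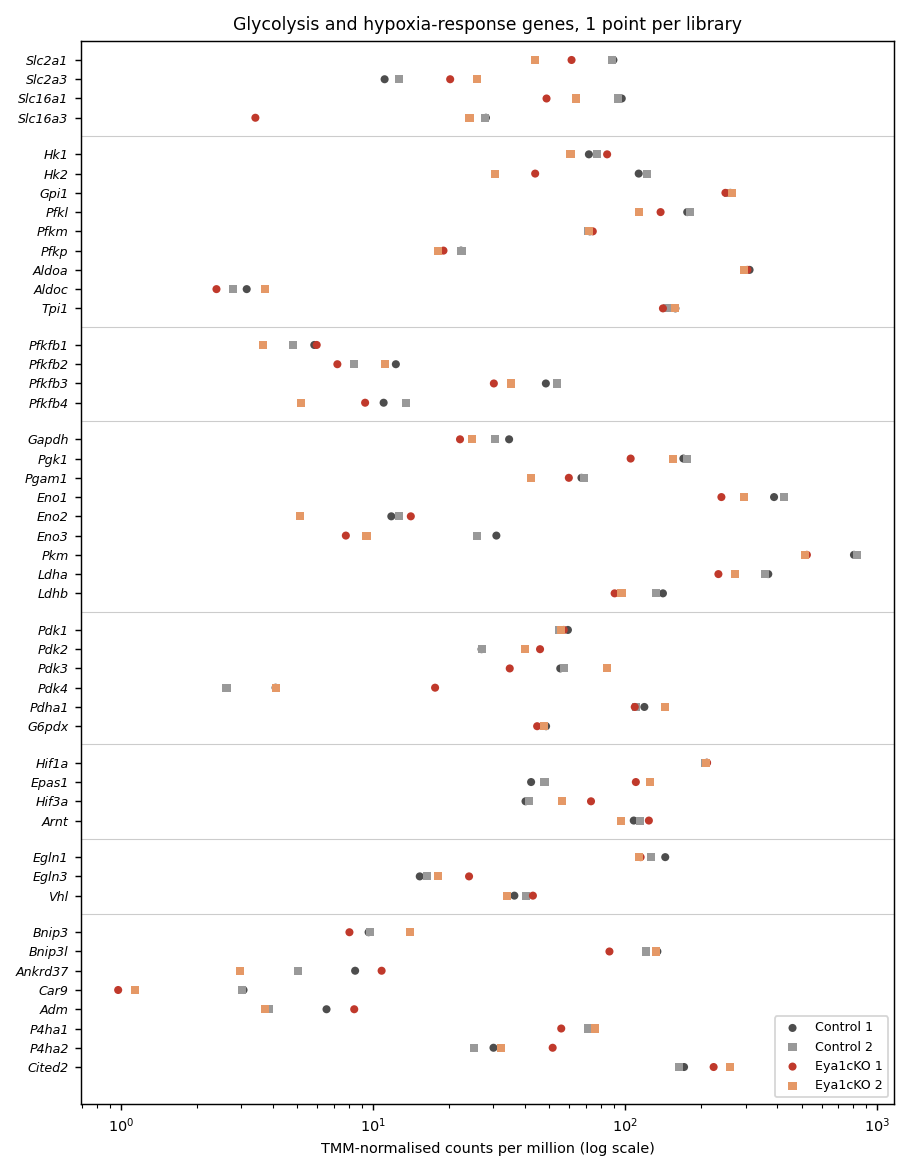
Level of each of the 47 genes in each library, in TMM-normalised CPM on a log axis, with circles and squares for libraries 1 and 2 in grey (control) and red to orange (*Eya1*cKO); lines separate the groups by role. For *Hk2*, *Eno3* and *Pkm* the 2 *Eya1*cKO points lie to the left of both control points, for *Epas1* to the right, and for *Hif1a* and *Aldoa* the 4 points nearly coincide.

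The *Eya1*cKO libraries differed from each other more than the controls did. The median ratio of the higher to the lower library was 1.3 in *Eya1*cKO and 1.07 in the controls, and 14 of the 48 identifiers differed by over 1.5 times within the *Eya1*cKO pair against 4 within the control pair. *Slc16a3*, which exports lactate, is an example, with 28 and 27.7 CPM in the controls, 3.41 CPM in *Eya1*cKO 1 and 24.1 CPM in *Eya1*cKO 2. *Pdk4* had 17.6 and 4.1 CPM, *Ankrd37* 10.8 and 2.96 CPM, and *Eno2* 14.1 and 5.13 CPM in *Eya1*cKO 1 and 2. For such genes the mean of the pair describes neither library.

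Glucose enters these cells through facilitative carriers. *Slc2a1* (GLUT1, ENSMUSG00000028645, chr4:119108711-119137983, plus strand, on build GRCm38 as all positions here) had 89.7 and 88.9 CPM in the controls, against 61.2 and 43.9 CPM in *Eya1*cKO, from 3132, 3327, 1384 and 770 reads. Both *Eya1*cKO libraries were below both controls, and the fall was -0.74 ± 0.17 (SE) on the log2 scale, adjusted *P* = 0.043 in edgeR. *Slc2a3* (GLUT3), a carrier of high affinity, had 11.1, 12.7, 20.2 and 25.9 CPM in the same order. The groups did not overlap, but the difference of 0.93 ± 0.30 did not pass the test (adjusted *P* = 0.1, edgeR). Per kilobase of exon, *Slc2a1* made up 94.4% and 93.5% of the sum of both carriers in the controls and 86.2% and 77.8% in *Eya1*cKO, and the sum in *Eya1*cKO was 67.1% of that in the controls. *Slc16a1* (MCT1, ENSMUSG00000032902, chr3:104638668-104658462, plus strand), which carries lactate and pyruvate, had 96.8 and 93.2 CPM in the controls, against 48.7 and 63.9 CPM in *Eya1*cKO. The groups did not overlap, with a log2 fold change of -0.77 ± 0.16 (adjusted *P* = 0.03, edgeR). *Slc16a3* had -1.15 ± 0.56 (adjusted *P* = 0.23, edgeR). The call of *Slc2a1* was lost with library totals alone (adjusted *P* = 0.052, edgeR), and the calls of both carriers were lost without the low-count filter, with the legacy form of the test and with control counts thinned to the depth of *Eya1*cKO (adjusted *P* from 0.054 to 0.085, edgeR).

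In the upper part of glycolysis, from hexokinase to triose phosphate isomerase, 2 of 9 genes tested were lower and none was higher, with 0 higher in DESeq2 and 0 at an unadjusted *P* under 0.05. Among all genes tested 4.41% were lower (9.25% of those with at least 20 CPM) and 5.15% higher. *Hk2* (ENSMUSG00000000628, chr6:82725025-82774454, minus strand) encodes an inducible hexokinase that traps glucose in the cell. It had 113 and 122 CPM in the controls, against 43.9 and 30.3 CPM in *Eya1*cKO, from 3952, 4585, 991 and 532 reads. The mean in *Eya1*cKO was 31.5% of the control mean, the groups were far apart, and the log2 fold change was -1.64 ± 0.18 (adjusted *P* = 0.0034, edgeR). *Hk1*, the hexokinase found in most cells, had 71.7 and 77.2 CPM in the controls, against 84.7 and 60.6 CPM in *Eya1*cKO, which overlap, with a log2 fold change of -0.02 ± 0.18. *Hk2* therefore went from 69.3% and 69.4% of the 2 hexokinase transcripts per kilobase of exon in the controls to 42.5% and 41.7% in *Eya1*cKO, and *Hk1* was the more abundant in both *Eya1*cKO libraries. Their sum in *Eya1*cKO was 51.8% of that in the controls.

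The committed step of glycolysis is made by phosphofructokinase. *Pfkl* (ENSMUSG00000020277, chr10:77986947-78010083, minus strand), the liver-type subunit, had 176 and 181 CPM in the controls, against 138 and 113 CPM in *Eya1*cKO. Both *Eya1*cKO libraries were lower, by -0.50 ± 0.12 on the log2 scale (adjusted *P* = 0.045, edgeR). This call was lost with library totals alone, without the low-count filter, with the legacy test and with thinned control counts (adjusted *P* from 0.06 to 0.085, edgeR). *Pfkm*, the muscle-type subunit, overlapped with 72.3, 71.3, 74.3 and 71.9 CPM, so that per kilobase *Pfkl* went from 53% and 54.1% of the 3 subunit transcripts to 46.5% and 42.5%, and *Pfkm* from 43.6% and 42.6% to 50.2% and 54.1%. *Pfkp* was at 3.21% to 3.37% of the sum. The other enzymes of this stretch were close between the genotypes. *Gpi1*, glucose-6-phosphate isomerase, had 261, 256, 249.5 and 264 CPM (log2 fold change -0.01 ± 0.08). *Aldoa*, the aldolase of most tissues, which made up 98.9% to 99.3% of the sum of *Aldoa* and *Aldoc* per kilobase, had 311, 298, 305 and 296 CPM (-0.02 ± 0.08), and *Tpi1*, triose phosphate isomerase, had 158, 147, 141 and 157 CPM (-0.04 ± 0.11). *Aldoc* had 2.39 to 3.71 CPM in all libraries.

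The bifunctional *Pfkfb* enzymes make and break down fructose-2,6-bisphosphate, the activator of phosphofructokinase. None of the 4 passed edgeR's or DESeq2's test, and 1, *Pfkfb3*, had an unadjusted *P* under 0.05. *Pfkfb3*, the form that favours synthesis of the activator and the most abundant of the 4 per kilobase, had 48.4 and 53.7 CPM in the controls, against 30.1 and 35.1 CPM in *Eya1*cKO. Both *Eya1*cKO libraries were lower, with a log2 fold change of -0.66 ± 0.19 (adjusted *P* = 0.079, edgeR). *Pfkfb1*, *Pfkfb2* and *Pfkfb4* had log2 fold changes from -0.71 to -0.10 with standard errors of 0.44 to 0.55.

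The lower part of glycolysis, which yields ATP and pyruvate, and the lactate dehydrogenases showed the most calls of the groups by role. Of 9 genes 5 were lower, all 9 had a negative log2 fold change, and in 8 both *Eya1*cKO libraries lay below both controls. Over all genes tested 4.41% were lower (9.25% of those with at least 20 CPM), and 30.0% had both *Eya1*cKO libraries below both controls. The median log2 fold change was -0.52, and the summed level was 2021 and 2061 CPM in the controls, against 1299 and 1419 CPM in *Eya1*cKO. *Pkm* (ENSMUSG00000032294, chr9:59656368-59679375, plus strand), pyruvate kinase of muscle and most growing tissues, had the highest level per kilobase of the 48 identifiers in the controls. It had 807 and 833 CPM in the controls, against 525 and 518 CPM in *Eya1*cKO, from 28182, 31194, 11854 and 9080 reads. The libraries of each genotype were close together and the groups clearly apart, at -0.65 ± 0.06 on the log2 scale (adjusted *P* = 0.0019, edgeR). Gene counts do not separate the M1 and M2 splice forms of *Pkm*.

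The enolases convert 2-phosphoglycerate to phosphoenolpyruvate. *Eno1* (ENSMUSG00000063524, chr4:150236721-150248879, plus strand), the form of most tissues, had 389 and 426 CPM in the controls, against 240.5 and 295 CPM in *Eya1*cKO (-0.61 ± 0.11 on the log2 scale, adjusted *P* = 0.019, edgeR). *Eno3* (ENSMUSG00000060600, chr11:70657202-70662513, plus strand), known as the muscle enolase, had 30.8 and 25.9 CPM in the controls, against 7.79 and 9.41 CPM in *Eya1*cKO, from 1075, 970, 176 and 165 reads. For both genes the groups did not overlap. *Eno3* fell to 30.3% of the control mean, with a log2 fold change of -1.73 ± 0.32 (adjusted *P* = 0.021, edgeR), and from 19.1% and 15.4% to 8.58% and 8.81% of enolase transcripts per kilobase. The 8 skeletal muscle markers summed to 16.5 and 23.2 CPM in the controls, against 20.4 and 11.6 CPM in *Eya1*cKO, which overlap. *Eno2*, the neuronal enolase, overlapped between the genotypes (-0.27 ± 0.47).

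Both lactate dehydrogenase genes fell by a like amount. *Ldha* (ENSMUSG00000063229, chr7:46841475-46855627, plus strand) had 369 and 357 CPM in the controls, against 234 and 273 CPM in *Eya1*cKO (-0.52 ± 0.09, adjusted *P* = 0.018, edgeR). *Ldhb* (ENSMUSG00000030246, chr6:142490249-142507957, minus strand) had 141 and 132 CPM against 90.7 and 96.6 CPM (-0.55 ± 0.11, adjusted *P* = 0.03, edgeR). Neither pair of groups overlapped, and the share of *Ldha* in the 2 transcripts per kilobase was 55.4%, 56.2%, 55.1% and 57.2% across the 4 libraries. The call of *Ldhb* was lost without the low-count filter (adjusted *P* = 0.056, edgeR).

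**Figure D2:**
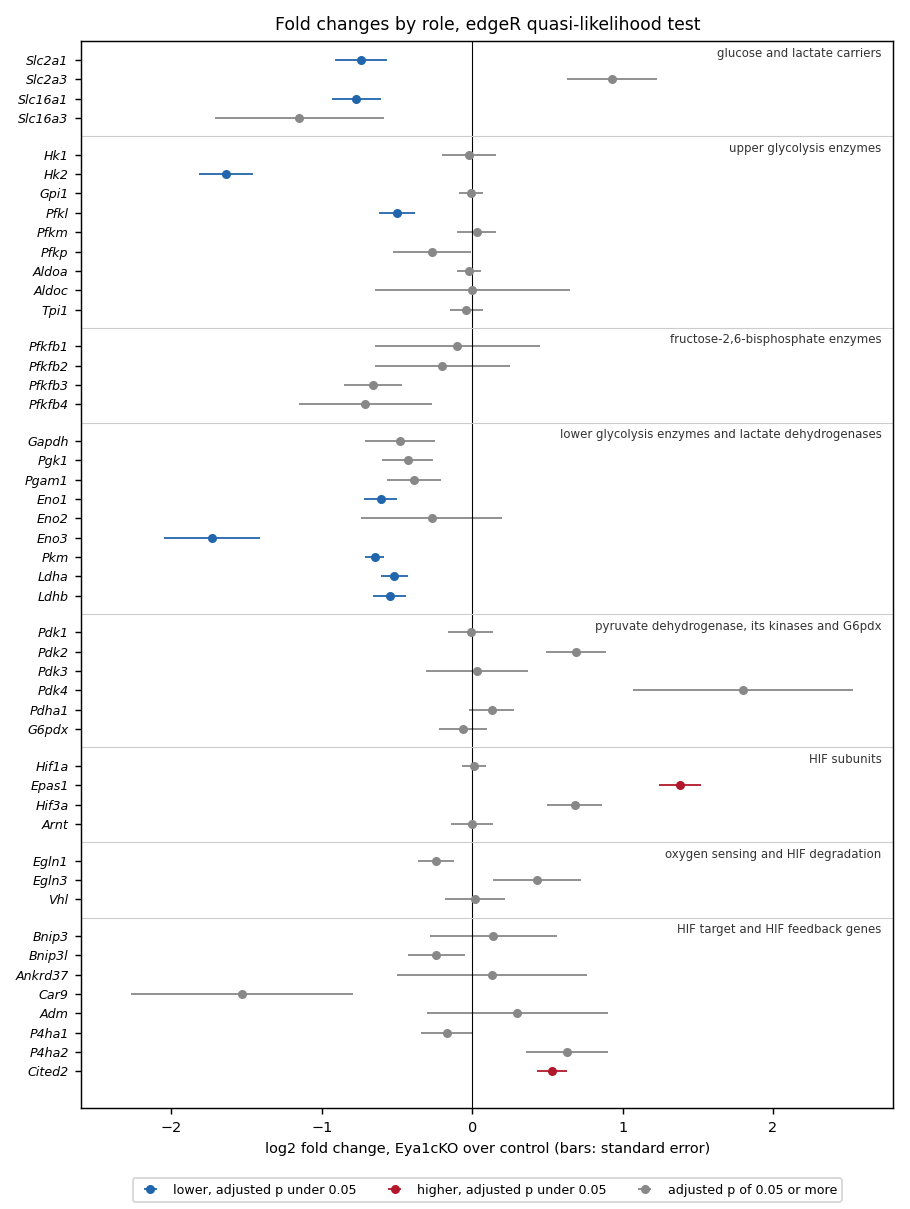
Log2 fold change of each tested gene with its standard error from edgeR, grouped by role; blue and red points passed an adjusted *P* of 0.05 and grey points did not. All 9 points of the lower glycolysis and lactate dehydrogenase group lie left of 0, whereas *Gpi1*, *Aldoa*, *Tpi1* and *Pfkm* lie within 0.04 of it, and *Epas1* and *Cited2* are the 2 red points.

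**Figure D3:**
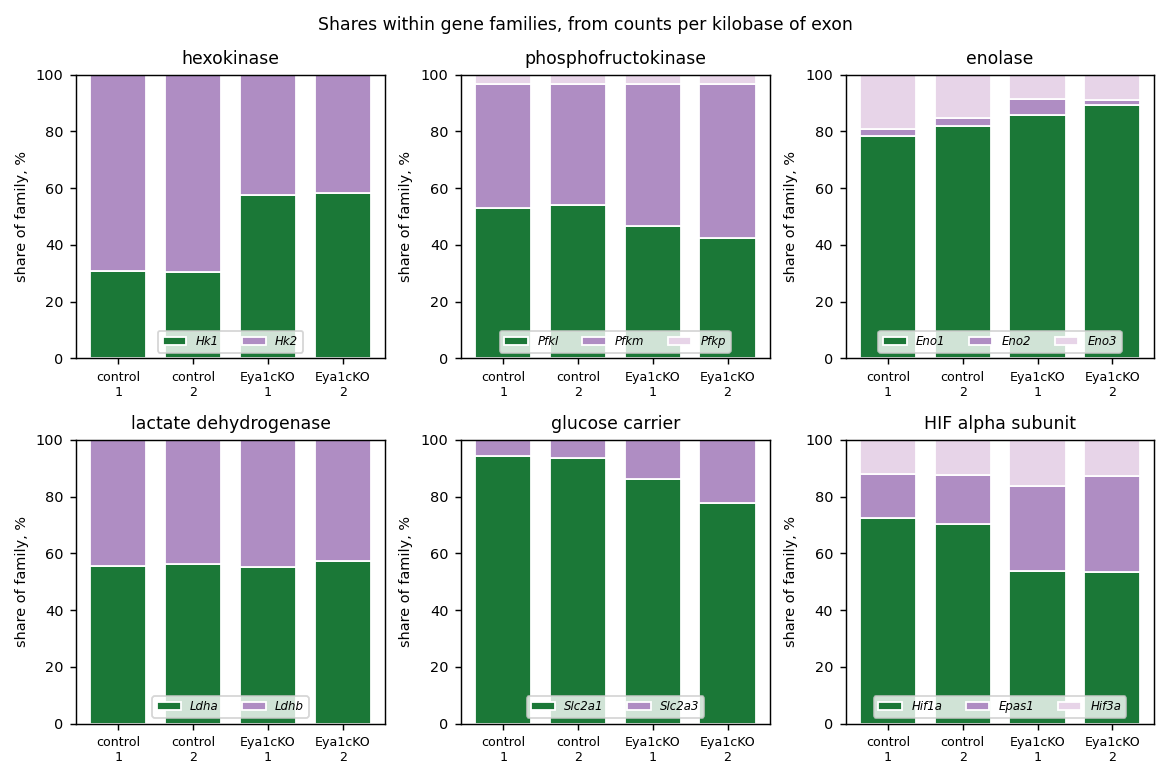
Share of each gene in the summed counts per kilobase of exon of its family, as stacked bars from 0 to 100% for each of the 4 libraries. *Hk2*, *Eno3*, *Slc2a1* and *Hif1a* take smaller shares in both *Eya1*cKO libraries than in both controls, and the split between *Ldha* and *Ldhb* stays between 55.1% and 57.2% for *Ldha*.

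*Gapdh*, *Pgk1* and *Pgam1* lie at the start of the lower part and have processed copies elsewhere in the genome. *Pgk1* had 169.9 and 175 CPM in the controls, against 105 and 155 CPM in *Eya1*cKO (-0.43 ± 0.17, adjusted *P* = 0.15, edgeR), and *Pgam1* had 67 and 68.8 CPM against 59.7 and 42.4 CPM (-0.39 ± 0.18, adjusted *P* = 0.21, edgeR). *Gapdh* had 34.6 and 30.5 CPM in the controls, against 22.1 and 24.6 CPM in *Eya1*cKO (-0.48 ± 0.23, adjusted *P* = 0.22, edgeR). All 3 had both *Eya1*cKO libraries below both controls without passing the test. The *Gapdh* values are uncertain, because 45 annotated close copies of it held more reads than the gene itself, with 2441, 2503, 597 and 487 reads on the copies and 1207, 1142, 500 and 432 on *Gapdh*, controls first. A close copy is another annotated gene with at least 20% of its own 75-base words also found in the listed gene. With the copies added, an alternative chosen after seeing the data, *Gapdh* had 104 and 97.3 CPM in the controls, against 48.5 and 52.4 CPM in *Eya1*cKO (log2 fold change -1.0 ± 0.14, adjusted *P* = 0.0082, edgeR), and 10 listed genes were lower in place of 9. Adding copies left *Eno1* at -0.58 (adjusted *P* = 0.026, edgeR) and *Pkm* at -0.65, both still lower.

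**Figure D4:**
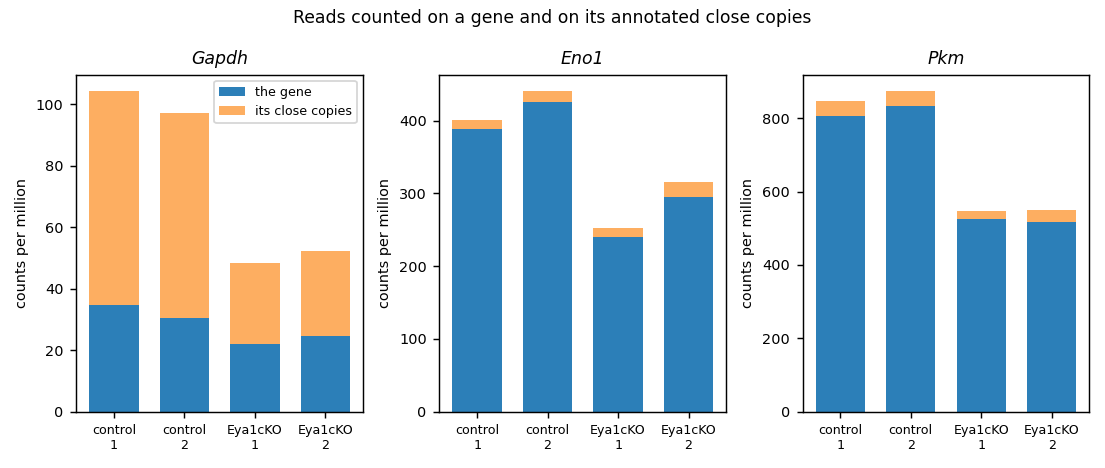
CPM on *Gapdh*, *Eno1* and *Pkm* (blue) and on their annotated close copies (orange), stacked, for each library, on axes that start at 0. For *Gapdh* the copies take 66.9% and 68.7% of the stacked reads in the controls and 54.4% and 53% in *Eya1*cKO, and for the other two genes they are a thin layer.

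Pyruvate made by glycolysis enters the mitochondrion through the pyruvate dehydrogenase complex, which the *Pdk* kinases switch off. Of *Pdk1* to *Pdk4*, *Pdha1* and *G6pdx*, the entry enzyme of the pentose phosphate pathway, 0 of 6 passed edgeR's test, 2 (*Pdk2* and *Pdk4*) were higher at an unadjusted *P* under 0.05, and DESeq2 called *Pdk2*. *Pdk2* had 26.9 CPM in each control and 45.9 and 40 CPM in *Eya1*cKO. The groups did not overlap, with a log2 fold change of 0.69 ± 0.20 (adjusted *P* = 0.078 in edgeR and 0.039 in DESeq2). *Pdk1*, a known HIF target, had 59.2, 54.6, 57 and 55.6 CPM (-0.01 ± 0.15). *Pdk3*, the most abundant of the 4 kinases per kilobase in the controls, had 55.2, 57.3, 34.8 and 84.5 CPM, so that the 2 *Eya1*cKO libraries lay on opposite sides of the controls. *Pdha1*, a subunit of the complex, had 119, 110.2, 109 and 144 CPM, and *G6pdx* had 48.5, 47.6, 44.7 and 47.6 CPM, and both overlapped between the genotypes.

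Of the 4 genes for HIF subunits 1 was higher, beside 5.15% of all genes tested. *Hif1a*, the alpha subunit most tied to glycolysis genes, had 210.1, 207, 211 and 209.8 CPM in the same order as above, a log2 fold change of 0.01 ± 0.08. The 4 values lay within the range of 207 to 211 CPM. *Epas1* (HIF-2 alpha, ENSMUSG00000024140, chr17:86753700-86833410, plus strand), known from endothelium and from the adrenal medulla and sympathetic cells, had 42.3 and 47.8 CPM in the controls, against 110.1 and 125 CPM in *Eya1*cKO, from 1476, 1788, 2488 and 2197 reads. Both *Eya1*cKO libraries were far above both controls, at 261% of the control mean and 1.38 ± 0.14 on the log2 scale (adjusted *P* = 0.0032, edgeR). All 8 endothelial and all 8 chromaffin and sympathetic markers rose in the same libraries, with the sums given above, and their part in the rise of *Epas1* was not tested. *Hif3a*, whose product can act as a brake on HIF, had 40.2, 41.4, 73.1 and 56.1 CPM (0.68 ± 0.18, adjusted *P* = 0.064 in edgeR and 0.027 in DESeq2). *Arnt*, the shared partner, had 108, 114, 124 and 95.9 CPM, which overlap (0.00 ± 0.14). *Hif1a* went from 72.5% and 70.4% of the 3 alpha subunit transcripts per kilobase to 53.9% and 53.6%, and *Epas1* from 15.4% and 17.2% to 29.7% and 33.8%. HIF alpha subunits are controlled chiefly through protein stability, which these counts do not measure.

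The oxygen sensors and *Vhl* did not pass the test, with 0 of 3 called by edgeR or DESeq2 and 0 at an unadjusted *P* under 0.05. *Egln1* (PHD2), the main HIF prolyl hydroxylase, had 144, 126, 115 and 113 CPM (-0.24 ± 0.12). *Egln3* (PHD3), itself induced by HIF, had 15.3, 16.3, 24 and 18.1 CPM (0.43 ± 0.29). *Vhl*, part of the ubiquitin ligase, had 36.3, 40.5, 43 and 33.9 CPM and overlapped between the genotypes. *Egln1* lay lower and *Egln3* higher in both *Eya1*cKO libraries, without passing the test.

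Of 8 HIF target and feedback genes 1 was higher and 0 were lower, with 0 lower in DESeq2 and 0 lower at an unadjusted *P* under 0.05. Among all genes tested 5.15% were higher and 4.41% lower. This list leaves out the groups of glycolysis genes and carriers described above. HIF raises many glycolysis genes, and the 9 listed genes that were lower are all in those groups. *Cited2* (ENSMUSG00000039910, chr10:17723218-17725674, plus strand), which is induced by HIF-1 and competes with it for the coactivators CBP and p300, had 171 and 163 CPM in the controls, against 224 and 261 CPM in *Eya1*cKO. The groups did not overlap, with a log2 fold change of 0.53 ± 0.10 (adjusted *P* = 0.025, edgeR), and the call was lost without the low-count filter (adjusted *P* = 0.056, edgeR). The other 7 had no call in edgeR or DESeq2 and 1 (*P4ha2*) at an unadjusted *P* under 0.05. Their summed level was 266 and 239 CPM in the controls, against 222 and 262 CPM in *Eya1*cKO, which overlap. *Bnip3l*, a mitophagy receptor, had 134, 121, 86.5 and 132 CPM, and *P4ha1*, a collagen prolyl hydroxylase subunit, had 74.6, 71.4, 55.7 and 76 CPM. Each overlapped because *Eya1*cKO 2 lay within or next to the control values. *Bnip3*, *Ankrd37* and *Adm* had 2.96 to 14 CPM with standard errors of 0.42 to 0.63. *Car9*, a carbonic anhydrase that is strongly induced in low oxygen, was low in every library, with 3.06, 3.02, 0.974 and 1.14 CPM (-1.53 ± 0.74, adjusted *P* = 0.22, edgeR).

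The wider pathway was read from 84 other genes, of which 78 were tested, 4 were lower and 11 higher, or 5.13% and 14.1% of those tested, beside 4.41% and 5.15% of all genes tested. Of 29 other HIF target genes tested, 1 was lower and 8 were higher, 14 of the 30 on the list lay higher in each *Eya1*cKO library than in either control (25.3% of all genes tested did), and the median log2 fold change was 0.36. Glycolysis genes that HIF also raises are not on this list. Among the genes of smallest *P* in this wider set, *Vegfa* and *Lox* rose, and *Hsp90aa1*, *Tfrc* and *Cited1* fell. *Vegfa*, the endothelial growth factor that podocytes also make, had 228 and 237 CPM against 403 and 361 CPM (0.72 ± 0.09, adjusted *P* = 0.0048, edgeR), and *Lox*, which crosslinks collagen, had 28.7 and 26.2 CPM against 80 and 116 CPM (1.82 ± 0.22, adjusted *P* = 0.0052, edgeR). For both genes the groups were well apart. *Hsp90aa1*, a chaperone, fell by -0.56 ± 0.07, and *Tfrc*, the transferrin receptor that brings in iron, by -0.76 ± 0.11 (adjusted *P* = 0.0054 and 0.0091, edgeR). *Cited1*, related to *Cited2* and itself in the nephron progenitor marker list, had 20.4 and 17.8 CPM against 5 and 3.88 CPM (-2.08 ± 0.42, adjusted *P* = 0.027, edgeR). The sums of the podocyte, stromal and endothelial markers rose in the same libraries, as given above. *Flt1* was in both the endothelial and the HIF target lists. The part of these cell types in the higher HIF target genes was not tested. Of 8 pentose phosphate genes, 1 was lower, and of 4 tested gluconeogenesis genes, 1 was higher. The 6 further pyruvate dehydrogenase genes had no call in edgeR or DESeq2 and 0 at an unadjusted *P* under 0.05. Of 14 HIF regulators, 2 were lower and 1 was higher.

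**Figure D5:**
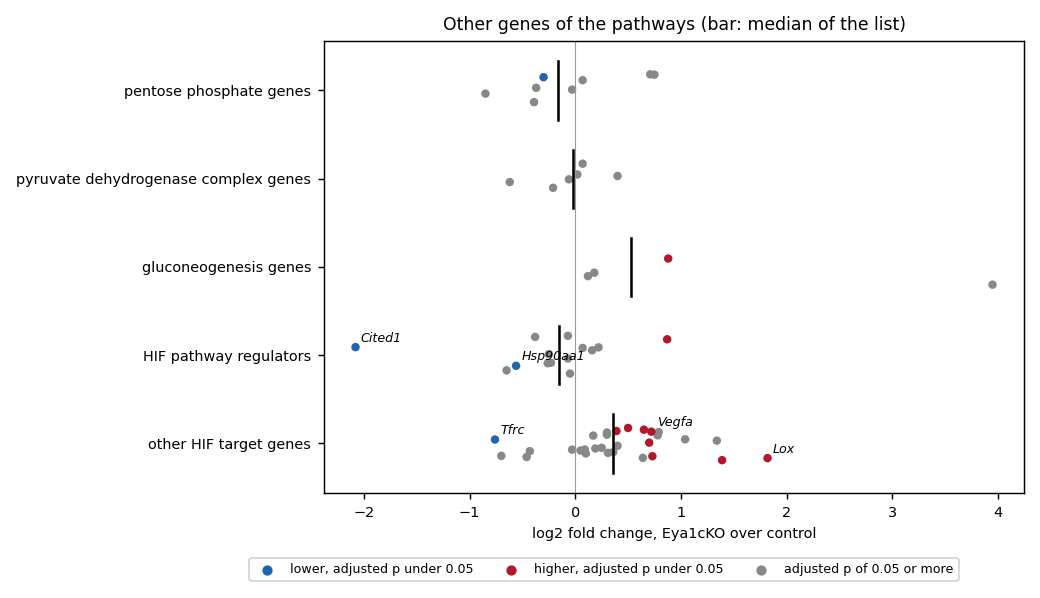
Log2 fold change of tested genes outside the 47, for 5 lists of the wider pathway, with a point per gene in blue (lower), red (higher) or grey (adjusted *P* of 0.05 or more) and a black bar at the median of each list; points are spread vertically only to keep them apart. The median of the other HIF target genes is 0.36, and that of the pentose phosphate genes is -0.16.

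Exons of some listed genes overlap another annotated gene, and the strand setting of the counting is not given in the sources used here. The largest overlaps with a gene on the opposite strand were 26.4% of exonic bases for *Ankrd37*, 22.3% for *Bnip3*, 16.1% for *Pdha1* and 13.6% for *G6pdx*, and on the same strand 17.4% for *Pfkfb2*, 15.3% for *Pkm* and 10.2% for *Pfkm*. Values of these genes may hold or lack reads of the neighbour. Of the 11 genes that passed the test, *Pkm* and *Slc2a1* (2.99%, opposite strand) overlapped another gene.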

How the data were processed

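RNA was measured in 4 libraries, 2 of control and 2 of *Eya1*cKO tdTomato+ kidney cells. The authors sequenced strand-specific SMARTer libraries from one end, mapped the reads to mm10 with HISAT2 and counted them on Ensembl genes with HTSeq-count, and the deposited values are these raw read counts per gene without normalization. According to the labels, each genotype was represented by 6 kidneys of embryos from 4 dams, and the study's methods state other numbers. Versions of these tools, the strand setting and any trimming are not given in the sources used here.

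A symbol was found for 52403 of the 52636 identifiers in the reference annotation (GENCODE M21, build GRCm38, the same build as mm10 but a later gene set), which also gave coordinates and exonic lengths. Rows that name no gene were left out of library sizes and tests. They held 12.9% to 22.7% (no gene) and 6.32% to 12.9% (not aligned) of recorded reads, and reads with more than one alignment were not counted. The genotype effect was fitted in edgeR 4.0.16 under R 4.3.3 (TMM scaling, filterByExpr with a minimum count of 10, glmQLFit and glmQLFTest with legacy = FALSE, genotype alone), with Benjamini-Hochberg adjustment over all 19041 genes and a threshold of 0.05. The standard error of a log2 fold change is its size divided by the root of *F*, and CPM divide the counts by the TMM-scaled totals. With 2 against 2 libraries an exact permutation test of a single value cannot pass 0.05, so shares within families were not tested. The sources used here do not state that the replicate numbers pair the libraries across genotypes.

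The 47 symbols and all lists were chosen with earlier results of these data known, so counts in them are descriptions and no list was tested as a set. Genes that passed the test are given with values in every library, HIF subunits, oxygen sensors and the most abundant form of each step likewise, other members by range, and of the 84 other pathway genes the 3 of smallest *P* in each direction with *Vegfa*. A result under this rule is not reported here. Beyond this rule, *Pdk2*, *Pdk4*, *Slc2a3*, *Slc16a3*, *Hk1*, *Pfkm*, *Ankrd37*, *Eno2*, *Egln3* and *Car9* were given values after these were seen. Alternatives were DESeq2 1.42.0 (its size factors and its Wald test), unscaled library totals, 2 other filters (none, or 10 counts or more in each library), the robust and the legacy form of the test, the replicate number as a block, control counts thinned to 19848372 reads, each library left out, and shares of raw counts. Promoter sequences are from RefSeq (GRCm38.p6).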

Additional observations from a re-analysis of the deposited data

Results flagged for a closer look

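Reads outside the gene counts were a larger share of the *Eya1*cKO libraries than of the controls. Reads on no annotated gene were 22.7% and 20.9% of recorded reads in *Eya1*cKO 1 and *Eya1*cKO 2, against 13.9% and 12.9% in control 1 and control 2. Reads that were not aligned were 12.9% and 12.7% in *Eya1*cKO against 6.32% and 6.69%. None of these reads entered the values of the glycolysis and hypoxia-response genes, and their part in the differences between genotypes was not tested.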

How the results depend on the processing

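Of the genes named from the test, none of those that passed it changed sign under any alternative, and apart from leaving out libraries, their calls were kept in 148 combinations of gene and alternative and lost in 22. Genes called over all genes tested went from 1820 to 1055 without the low-count filter, 3102 with DESeq2's Wald test, 1096 with the legacy test and, with 1 library left out, 23 to 7925. The 9 listed genes called lower became 5 without the filter and 0 to 16 with 1 library left out, and the 2 called higher became 1 without the filter, 4 with DESeq2 and 0 to 8. Other pathway genes called lower went from 4 to between 0 and 14 with 1 library left out, and those called higher from 11 to 5 without the filter, with the legacy test or with thinned control counts, and to between 0 and 22. The median log2 fold change of the listed genes, -0.06, was -0.05 with DESeq2's size factors, -0.02 with library totals alone, -0.10 without the filter, -0.07 with at least 10 counts in every library, -0.09 with the Wald test, -0.05 with thinned counts and -0.23 to -0.07 with 1 library left out. Of genes that did not pass, those whose sign differed from that with all 4 libraries, and whose log2 fold change exceeded its standard error with all 4 or in that alternative, were *Hk1* (-0.31 without *Eya1*cKO 1 and 0.17 without *Eya1*cKO 2), *Pdk3* (0.57 and -0.71), *Arnt* (-0.22 and 0.15), *Vhl* (-0.19 and 0.14), *Bnip3l* (0.05 and -0.57) and *Ankrd37* (-1.18 and 0.67). Between the same pair of fits *Eno2* (-1.27 and 0.18), *Pdha1* (0.32 and -0.09) and *P4ha1* (0.05 and -0.40) also had opposite signs, with an adjusted *P* under 0.05 in edgeR in one of them. Shares of raw counts put *Pfkl* above *Pfkm* also in *Eya1*cKO (57.6% and 33.8%), and *Pdk1* above *Pdk3* in the controls (39.7% and 39.2%), each the reverse of the order per kilobase. The cause of these shifts was not tested.

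With the replicate number of the labels as a block, 621 genes were called, of the listed genes 3 lower (*Hk2*, *Eno1* and *Pkm*) and 1 higher (*Epas1*), and of the other pathway genes 1 lower and 4 higher. Over the genes tested, deviations of control 1 correlated with those of *Eya1*cKO 1 at 0.0062. With 2 libraries per genotype this does not settle whether libraries of the same number were processed together. Only differences larger than the spread of 2 libraries can be seen, and genes under about 10 reads per library were not tested.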
